A study of Homo sapiens with 6 samples.

Results

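This account follows 9 genes that carry iron into the cell, store it, export it, sense it, or protect membranes from iron-driven lipid oxidation: TFRC, SLC11A2, FTH1, FTL, NCOA4, SLC40A1, ACO1, IREB2 and AIFM2. They were listed by symbol, with no measured value in the rule but with earlier results of these data known, and all 9 were found among the 14456 genes of the deposited table. RNA was sequenced from C4-2 cells, a single human prostate cancer line that was derived from LNCaP and grows without androgen. One group was exposed to IPI-9119, a small-molecule inhibitor of fatty acid synthase, at 100 nM for 6 days. The other received 0.1% DMSO as vehicle. There were 3 libraries of polyA-selected RNA in each group, all from cells kept in RPMI medium with fetal bovine serum and frozen as pellets, and all 6 libraries came from the same line. The question put by the design is how gene expression differs after 6 days of blocked fatty acid synthesis.

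Cells take up iron mainly as transferrin bound to the transferrin receptor (TFRC), and the metal ion transporter DMT1 (SLC11A2) moves it out of the endosome into the cytosol. Iron that is not used at once is kept in ferritin, a shell of heavy (FTH1) and light (FTL) chains, which NCOA4 delivers to the lysosome when iron is needed, while ferroportin (SLC40A1) is the exporter. The iron regulatory proteins ACO1 (IRP1) and IREB2 (IRP2) bind a hairpin in mRNA, the iron-responsive element: in the 3′ UTR of TFRC mRNA binding protects the message from decay, and in the 5′ UTR of ferritin and ferroportin mRNA it blocks translation. Ferroptosis is a form of cell death driven by iron-dependent lipid peroxidation, and AIFM2 (FSP1) counters it by reducing coenzyme Q, in parallel with the glutathione peroxidase GPX4.

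The hairpins are printed because the search described here found them in 3 of the 8 members searched. The coding transcripts of GENCODE 29 (GRCh38) of the 8 members other than FTH1 were searched for a C, 5 bases and then CAGTGN, with the 5 bases on either side of the loop paired (G with T allowed). The element was found 4 times in the 3′ UTR of TFRC, 1 time in the 5′ UTR of FTL and 1 time in the 5′ UTR of SLC40A1. Each TFRC element was in 3 of 4 coding transcripts, and the SLC40A1 element was in 1 of 5. Counts per gene do not say which transcript was present. Capitals mark the bulged C and the 6 bases of the loop, and each sequence reads 5′ to 3′ on the strand of the gene.
TFRC, chr3:196050978-196051007, minus strand: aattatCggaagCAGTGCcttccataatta
TFRC, chr3:196050574-196050603, minus strand: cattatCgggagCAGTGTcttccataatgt
TFRC, chr3:196050509-196050538, minus strand: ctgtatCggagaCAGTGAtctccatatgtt
TFRC, chr3:196050462-196050491, minus strand: aattatCgggaaCAGTGTttcccataattt
FTL, chr19:48965335-48965364, plus strand: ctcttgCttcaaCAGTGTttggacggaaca
SLC40A1, chr2:189580660-189580689, minus strand: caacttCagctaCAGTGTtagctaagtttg
All 6 loops share the letters CAGTG, which the search required, and their stems differ. The loop ends in T in FTL, SLC40A1 and a pair of the TFRC elements, and in C or A in the other two of TFRC. The same search found an element in 286 of 19702 genes with a coding transcript (1.45%), whereas the loop letters CAGTG alone were in 95.2% of them. SLC11A2, NCOA4, ACO1, IREB2 and AIFM2 held no match to the full element as searched, the C, the loop and the paired stem. This says only that the spelling is not in their annotated coding transcripts, and an element that departs from it would be missed. FTH1 was left out of the search, so the search says nothing about an element in FTH1 mRNA.

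The libraries held between 19090749 and 23448035 reads over the 14456 genes, and the mean depth of the IPI-9119 libraries was 0.861 of that of the DMSO libraries. Values are normalised counts, in which a single read is worth between 0.894 and 1.10 depending on the library. Libraries within a group varied beyond sampling noise. IPI-9119 replicate 1 stood apart from replicates 2 and 3 of its group. Its counts differed from theirs with a chi-square per degree of freedom of 7.42 and 9.59. Between IPI-9119 replicates 2 and 3 the value was 2.3, and between pairs of DMSO libraries it was 5.28, 4.23 and 4.52. Without IPI-9119 replicate 1, 7 members still passed the test, with log2 fold changes of 2.41 for TFRC and 1.47 for FTH1. Of 11 luminal prostate markers, 9 were lower and 2 higher in the IPI-9119 libraries, against 31.4% lower and 31.3% higher over all genes tested. The summed normalised count of these markers was 150072 to 154592 in the IPI-9119 libraries and 259434 to 270459.7 in the DMSO libraries. KLK4 (log2 fold change -1.85) and KLK2 (-1.21) were among those that fell, and ACP3 was higher (0.64). None of 4 basal markers (KRT5, KRT14, TP63, KRT15) was in the table, and 4 of 13 stromal, leukocyte and endothelial markers were (COL1A1, COL1A2, COL3A1 and VWF), with a summed normalised count of 170.5 to 226 in the IPI-9119 libraries and 173 to 191 in the DMSO libraries. COL1A1 had the smallest p of these 4, with a log2 fold change of 0.57 and an adjusted p of 0.122 (limma). None of the 4 passed, whereas 2 were called higher after a correction for exonic length and GC content and 1 without DMSO replicate 3. The part of these marker levels in the results below was not tested. The labels do not say whether the libraries of a group came from separate cultures, so each p-value reflects library-to-library spread that could be technical.

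Of the 9 members, 7 were higher in the IPI-9119 libraries (limma on log2(value + 1), Benjamini-Hochberg adjusted p under 0.05 over 14437 genes), none was lower and 2 did not pass. The transcriptome moved widely: 31.3% of all genes tested were higher by the same rule and 31.4% were lower, 62.8% in all. The median log2 fold change of the members was 0.48, against 0.0017 over all genes tested, whose middle 50% lay between -0.42 and 0.37. TFRC and FTH1 were the members past 2-fold, a size reached upward by 7.92% of genes, and TFRC alone was past 4-fold, reached upward by 2.43%. For 8 of the 9 members the ranges of the 2 groups were separate, 7 higher and 1 (NCOA4) lower with IPI-9119; over all genes this held for 34.0% upward and 33.9% downward. The measurements are of bulk RNA, in which fewer cells of a type and less RNA per cell cannot be told apart.

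**Figure D1:**
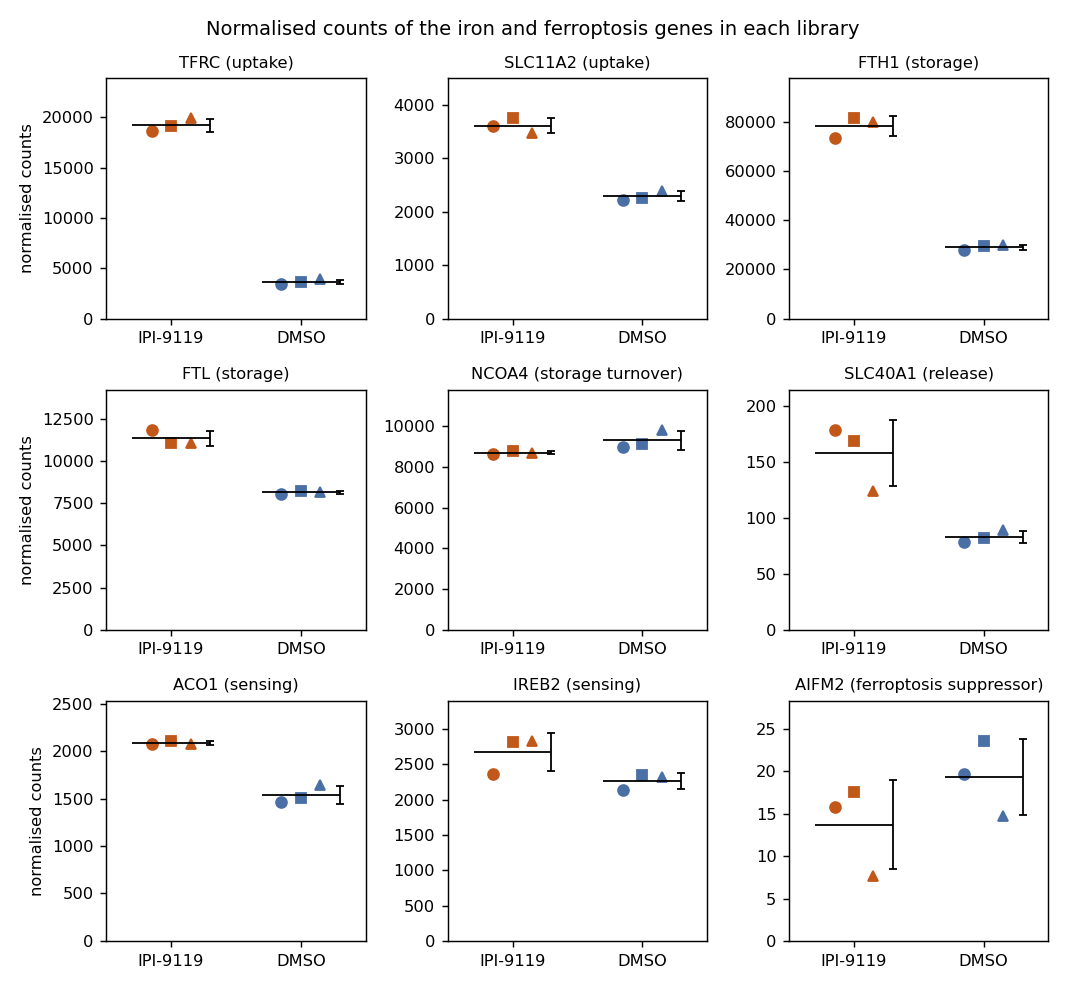
Normalised counts (vertical axis, from 0) of each of the 9 genes in the 3 IPI-9119 libraries (left) and the 3 DMSO libraries (right); circles, squares and triangles are replicates 1, 2 and 3, the line is the mean and the bar is 1 SD. TFRC and FTH1 show the widest gap between groups, NCOA4 lies slightly lower with IPI-9119, and for AIFM2 the groups overlap.

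Among the members, the uptake gene TFRC had the largest difference. TFRC (ENSG00000072274, GRCh38 chr3:196027183-196082189, minus strand) had 18611, 19126 and 19874 normalised counts in the IPI-9119 libraries, against 3475, 3626 and 3899 in the DMSO libraries. Every IPI-9119 library lay far above every DMSO library, and the libraries of each group lay close together. The means were 19204 ± 635 with IPI-9119 and 3667 ± 215 with DMSO (SD, n = 3 each), a 5.24-fold difference. The log2 fold change was 2.39 (SE 0.0506, limma adjusted p = 3.2e-13), with a 95% interval of 4.86- to 5.65-fold. This ranked TFRC 215th from the top of the 14437 genes. Transcripts of the transferrin receptor made up 0.0907% of the reads recovered over all listed genes with IPI-9119 and 0.0175% with DMSO.

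SLC11A2 (ENSG00000110911, chr12:50979401-51028566, minus strand), the transporter that acts after TFRC on the same route, had 3604, 3740.1 and 3461 normalised counts in the IPI-9119 libraries, against 2221, 2258 and 2387 in the DMSO libraries. The groups were well separated, with a smaller gap than for TFRC. The means were 3602 ± 139.5 with IPI-9119 and 2289 ± 87.1 with DMSO (SD, n = 3 each), 1.57-fold apart. SLC11A2 rose by a log2 fold change of 0.65 (SE 0.0513, 95% interval 0.54 to 0.76, limma adjusted p = 8.1e-08). A small nuclear RNA gene annotated within it on the same strand had no row in the table.

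Both ferritin chains rose, with the larger fold change in the heavy chain. FTH1 (ENSG00000167996, chr11:61959718-61967660, minus strand), the chain with the ferroxidase site that oxidises incoming iron, had 73501, 81263 and 79679 normalised counts in the IPI-9119 libraries, against 27816, 29289 and 29866 in the DMSO libraries. The lowest IPI-9119 library, replicate 1, was still far above the highest DMSO library. The means were 78148 ± 4101 with IPI-9119 and 28990.4 ± 1057 with DMSO (SD, n = 3 each), a 2.70-fold difference. The log2 fold change was 1.43 (SE 0.0482, 95% interval 1.33 to 1.53, limma adjusted p = 1.7e-11). By mean value FTH1 ranked 26th of all genes tested.

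FTL (ENSG00000087086, chr19:48965301-48966878, plus strand), the chain that helps the iron core form, had 11874, 11096 and 11071 normalised counts in the IPI-9119 libraries, against 8039, 8235 and 8167 in the DMSO libraries. The DMSO libraries were nearly level and all lay below the IPI-9119 libraries. The means were 11347 ± 457 with IPI-9119 and 8147 ± 99.7 with DMSO (SD, n = 3 each), 1.39-fold apart. FTL rose by a log2 fold change of 0.48 (SE 0.0446, 95% interval 0.38 to 0.57, limma adjusted p = 4.7e-07).

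Heavy and light chain mRNA were also compared within each library. The ratio of FTH1 to FTL normalised counts was 6.19, 7.32 and 7.20 in the IPI-9119 libraries, against 3.46, 3.56 and 3.66 in the DMSO libraries. All IPI-9119 ratios were above all DMSO ratios, and IPI-9119 replicate 1 was the lowest of its group. On the log2 scale the ratios differed by 0.95 (exact permutation test over libraries, two-sided, p = 0.100, and 3 against 3 libraries cannot go below 0.10). Per exonic length, heavy chain reads exceeded light chain reads 2.99 ± 0.269 times with IPI-9119 and 1.54 ± 0.0426 times with DMSO (SD, n = 3 each). Together both chains took 0.397%, 0.439% and 0.432% of recovered reads in the IPI-9119 libraries, against 0.171%, 0.181% and 0.181% in the DMSO libraries.

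**Figure D2:**
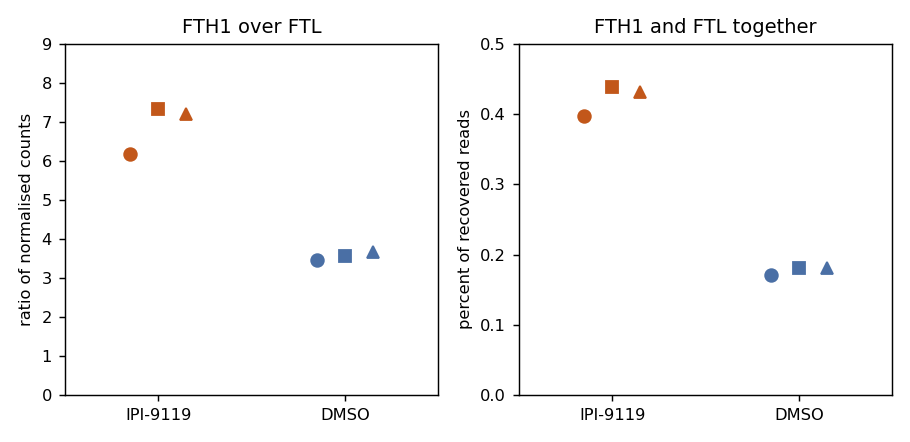
Left, the ratio of FTH1 to FTL normalised counts in each library; right, the percent of all recovered reads that fell on FTH1 and FTL together; IPI-9119 libraries are left and DMSO libraries right in each panel, and circles, squares and triangles are replicates 1, 2 and 3. Ratios of 6.19 to 7.32 with IPI-9119 stand above 3.46 to 3.66 with DMSO.

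Ferritin genes have many near-identical pseudogene copies, which could share reads with them. The table held 6 FTH1 pseudogenes, whose summed normalised count was 179, 192 and 203 in the IPI-9119 libraries and 78.7, 91.5 and 91.8 in the DMSO libraries. That sum was 0.236% to 0.312% of FTH1 in any library, and it was 2.19-fold higher with IPI-9119. The 1 FTL pseudogene in the table, FTLP3, reached 0.0993% to 0.202% of FTL and did not pass the test (log2 fold change 0.03, limma adjusted p = 0.941). Adding these rows to their parent genes left the log2 difference of the ratio at 0.95. How reads matching several copies were counted is not given in the sources used here, so the split between FTH1 and its copies is uncertain. BEST1, which overlaps FTH1 on the opposite strand, averaged 120.2 normalised counts with IPI-9119 and 214 with DMSO, far below FTH1.

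NCOA4 (ENSG00000266412, chr10:46005088-46030714, minus strand), the receptor that takes ferritin to the lysosome, had 8657, 8784 and 8679.6 normalised counts in the IPI-9119 libraries, against 8979, 9142 and 9842 in the DMSO libraries. All IPI-9119 libraries lay just below the lowest DMSO library. The means were 8707 ± 67.4 with IPI-9119 and 9321 ± 458 with DMSO (SD, n = 3 each). The log2 fold change was -0.10 (SE 0.0462, 95% interval -0.20 to 0.00, limma adjusted p = 0.0813), which did not pass. After a correction for exonic length and GC content NCOA4 was lower by a log2 fold change of -0.33 (limma adjusted p = 8.4e-06), and under quantile scaling by -0.15 (limma adjusted p = 0.00557); over all genes 34.1% and 30.1% were lower by those fits.

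Ferroportin mRNA was scarce and higher with IPI-9119. SLC40A1 (ENSG00000138449, chr2:189560579-189583758, minus strand) had 179, 169 and 124 normalised counts in the IPI-9119 libraries, against 78.7, 82.1 and 89.1 in the DMSO libraries. The groups did not overlap, although IPI-9119 replicate 3 was well below the other two. The recovered reads behind these values were 438 in all IPI-9119 libraries (exact Poisson 95% interval 398 to 481) and 272 in all DMSO libraries (241 to 306), intervals that cover counting error only. The means were 158 ± 29.2 with IPI-9119 and 83.3 ± 5.32 with DMSO (SD, n = 3 each). SLC40A1 rose by a log2 fold change of 0.90 (SE 0.16, 95% interval 0.55 to 1.24, limma adjusted p = 2.3e-04).

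The mRNAs of both iron regulatory proteins were higher, with smaller fold changes than those of the receptor and the heavy chain. ACO1 (ENSG00000122729, chr9:32384603-32454769, plus strand), which is an aconitase when it holds an iron-sulfur cluster and binds RNA when it does not, had 2072, 2111 and 2076 normalised counts in the IPI-9119 libraries, against 1462, 1505 and 1641 in the DMSO libraries. The IPI-9119 libraries were nearly level and stood clear of all DMSO libraries. The means were 2086 ± 21.3 with IPI-9119 and 1536 ± 93.5 with DMSO (SD, n = 3 each). ACO1 rose by a log2 fold change of 0.44 (SE 0.0564, 95% interval 0.32 to 0.56, limma adjusted p = 1.0e-05).

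IREB2 (ENSG00000136381, chr15:78437431-78501456, plus strand), whose protein is degraded when iron is plentiful, had 2366, 2817 and 2832 normalised counts in the IPI-9119 libraries, against 2139, 2342 and 2325 in the DMSO libraries. The groups came close to touching: IPI-9119 replicate 1 was barely above DMSO replicate 2. The means were 2672 ± 265 with IPI-9119 and 2269 ± 113 with DMSO (SD, n = 3 each). The log2 fold change was 0.23 (SE 0.0691, 95% interval 0.08 to 0.38, limma adjusted p = 0.00935). This call did not hold without IPI-9119 replicate 2 (0.19, limma adjusted p = 0.0552) or without IPI-9119 replicate 3 (0.19, limma adjusted p = 0.0506), whereas without IPI-9119 replicate 1 the log2 fold change was 0.32 (limma adjusted p = 1.5e-05).

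AIFM2, the ferroptosis suppressor, was barely detected. AIFM2 (ENSG00000042286, chr10:70098223-70132934, minus strand) had 15.8, 17.5 and 7.70 normalised counts in the IPI-9119 libraries, against 19.7, 23.6 and 14.7 in the DMSO libraries. The groups overlapped, and replicate 3 was the lowest library in each. These values rest on 38 recovered reads in all IPI-9119 libraries (exact Poisson 95% interval 26.9 to 52.2) and 63 in all DMSO libraries (48.4 to 80.6). The means were 13.7 ± 5.22 with IPI-9119 and 19.3 ± 4.46 with DMSO (SD, n = 3 each), and the log2 fold change was -0.52 (SE 0.373, limma adjusted p = 0.239). Its 95% interval, -1.32 to 0.28, spans folds of 0.400 to 1.21, so both a lower and a slightly higher level of AIFM2 lie within it. H2AFY2, which overlaps AIFM2 on the opposite strand, averaged 150.5 normalised counts with IPI-9119 and 137 with DMSO, and without the strand setting of the counting the reads of such a pair cannot be told apart.

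**Figure D3:**
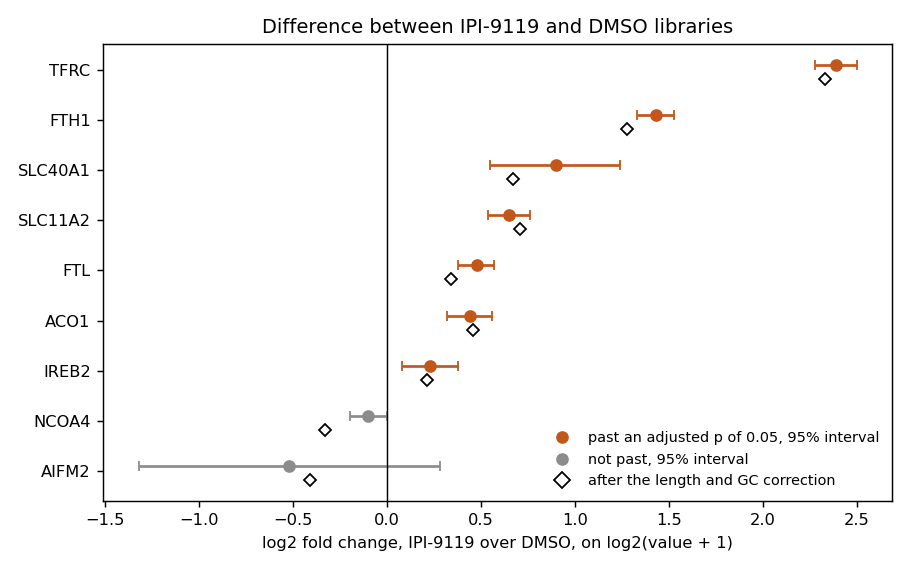
Log2 fold change of IPI-9119 over DMSO on the log2(value + 1) scale for the 9 genes, with 95% intervals; filled points are past an adjusted p of 0.05 (orange) or not (grey), and open diamonds are the values after the correction for exonic length and GC content. TFRC (2.39) and FTH1 (1.43) lie farthest to the right, and the diamonds of FTH1 (1.28), FTL (0.34) and NCOA4 (-0.33) lie outside the intervals of their points.

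Levels of different genes were compared as RPKM, reads scaled by exon length and by the reads of the library, computed from the recovered reads. Ferritin heavy chain led in both groups, with 1818 ± 119 RPKM for FTH1 with IPI-9119 and 683 ± 25.5 RPKM with DMSO (SD, n = 3 each). FTL followed with 609.8 ± 15.9 RPKM with IPI-9119 and 444 ± 8.14 RPKM with DMSO. TFRC came next with IPI-9119 at 115 ± 5.21 RPKM, whereas with DMSO it was at 22.2 ± 1.23 RPKM. NCOA4 was at 101 ± 1.95 RPKM with IPI-9119 and 109 ± 4.91 RPKM with DMSO, so TFRC and NCOA4 changed places in the order, and their ranges did not overlap in either group. SLC11A2, ACO1 and IREB2 formed a middle tier: 16.8 ± 0.673, 13.0 ± 0.275 and 11.7 ± 1.31 RPKM with IPI-9119, and 10.8 ± 0.370, 9.73 ± 0.553 and 10.0 ± 0.533 RPKM with DMSO. The libraries of ACO1 (12.7 to 13.3 RPKM) and IREB2 (10.2 to 12.5 RPKM) did not overlap with IPI-9119, whereas with DMSO ACO1 (9.24 to 10.3 RPKM) and IREB2 (9.44 to 10.5 RPKM) overlapped and could not be ordered, nor could IREB2 and SLC11A2 (10.4 to 11.2 RPKM). SLC40A1 was at 1.72 ± 0.303 RPKM with IPI-9119 and 0.920 ± 0.0557 RPKM with DMSO. AIFM2 was last at 0.125 ± 0.0476 RPKM with IPI-9119 and 0.180 ± 0.0429 RPKM with DMSO. Exonic length here is that of all annotated exons merged, which understates the level of a gene whose long exons are little used.

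**Figure D4:**
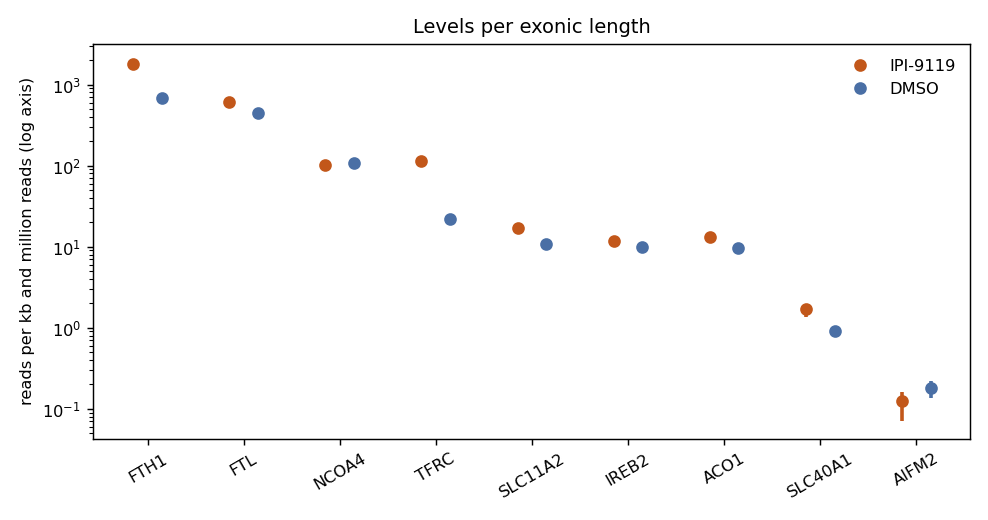
Level of each of the 9 genes in RPKM (reads scaled by merged exon length and library reads) on a log axis; points are means of 3 libraries (IPI-9119 left, DMSO right for each gene) and vertical lines run from the lowest to the highest library. FTH1 is at the top in both groups and AIFM2 at the bottom, and TFRC lies above NCOA4 with IPI-9119 and below it with DMSO.

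The start sites of 8 of the 9 members were matched to 13 RefSeq promoter windows (GRCh38.p14, 250 bases before to 50 after the start). FTH1 was the member without a window, so the search says nothing about its promoter. Both strands were searched for TGACNNNGC, the core of the antioxidant response element, ACGTG, the core of the hypoxia response element, and TCACNCCAC, the core of a sterol regulatory element. Across 35116 windows these letters were in 13.3%, 21.4% and 1.13%. TFRC and FTL each held 1 ACGTG, beginning at -88 and -11 from the start site. AIFM2 and 1 of the NCOA4 windows each held 1 TGACNNNGC, at -22 and 23. The sterol element was in none of the 13 windows. The matches of the member with the largest difference and of the one with the lowest level are shown, with the motif in capitals, read on the gene's strand.
TFRC, chr3:196082161-196082190, minus strand: cctcgcgagcgtACGTGcctcaggaagtga
AIFM2, chr10:70132828-70132857, minus strand: cagcacgagtGCTGAGTCAcgccccgcccg
In the AIFM2 window the capitals read as the antioxidant core on the opposite strand. A match is a run of letters, not a site shown to be bound.

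Other genes of iron entry went both ways. Of 11 tested genes of iron entry and reduction, 5 were higher, 2 lower and 4 did not pass, with a median log2 fold change of 0.33. Among all genes tested 31.3% were higher and 31.4% lower. Without DMSO replicate 3, or without IPI-9119 replicate 3, 3 of the 11 were higher. SLC39A8 (ZIP8), a zinc and iron importer, averaged 11239 ± 174 normalised counts with IPI-9119 and 4001 ± 225 with DMSO (log2 fold change 1.49, limma adjusted p = 1.3e-11). TFR2, a second transferrin receptor, was higher at a far lower level, 119 ± 21.9 with IPI-9119 and 70.4 ± 4.37 with DMSO (0.73, limma adjusted p = 0.00191; 1.15 after the length and GC correction). The metalloreductase STEAP4 fell to 81.9 ± 12.4 with IPI-9119, against 245 ± 10.3 with DMSO (-1.58, limma adjusted p = 2.3e-07). Of the 5 tested genes of iron release and the hepcidin axis, 2 were higher and 3 lower (median -0.53), and 1 was higher without IPI-9119 replicate 3. FURIN (-1.18) and the hemojuvelin co-receptor NEO1 (-1.08) fell and the hepcidin-inducing ligand BMP6 rose (0.92). The hormone hepcidin itself was not among the tested genes.

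Genes listed under iron sensing and iron chaperones, which leave out the members ACO1 and IREB2, were more often lower. Of 9 tested, 3 were higher and 6 lower (median log2 fold change -0.38), against 31.3% higher and 31.4% lower over all genes. The members ACO1 and IREB2, left out of this list, were both higher. FBXL5, the iron-sensing F-box protein that targets IREB2 for degradation, was higher, at 2255 ± 40.0 normalised counts with IPI-9119 and 1604 ± 42.7 with DMSO (0.49, limma adjusted p = 1.3e-06; 0.25 after the length and GC correction). HERC2, a ubiquitin ligase that acts on NCOA4 and FBXL5, fell to 169 ± 31.2 with IPI-9119, against 531 ± 107 with DMSO (-1.64, limma adjusted p = 1.1e-06; -0.86 after that correction). PCBP1, a cytosolic chaperone that delivers iron to ferritin, fell to 1309 ± 144 with IPI-9119, against 2275 ± 104 with DMSO (-0.80, limma adjusted p = 3.8e-07). NEDD4L, a ubiquitin ligase of the family that acts on DMT1, was lower too (-0.76, limma adjusted p = 1.4e-08). Outside the members, 4 transcripts known for an iron-responsive element were tested: CDC14A rose (1.01), CDC42BPA fell (-0.67) and 2 did not pass. Between 1 and 3 of these 4 were called higher over the settings tried. The count was 3 with replicate number as a block in the fit, and 3 without IPI-9119 replicate 1. It was 2 with the length and GC correction, with or without the block, and 2 without DMSO replicate 2.

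Most heme genes were higher. Of 19 genes of heme synthesis, transport and breakdown, 14 were higher, 1 lower and 4 not past the test (median log2 fold change 0.30). Over all genes 31.3% were higher and 31.4% lower. After the length and GC correction 11 of these 19 were higher, against 30.7% of all genes. HMOX1, the inducible heme oxygenase that frees iron from heme, averaged 1133 ± 64.0 normalised counts with IPI-9119 and 345 ± 22.4 with DMSO (1.71, limma adjusted p = 3.0e-10), whereas its constitutive relative HMOX2 fell (-0.36, limma adjusted p = 1.2e-04). The transporter ABCG2, which exports porphyrins, averaged 45.0 ± 12.0 with IPI-9119 and 4.25 ± 2.52 with DMSO (3.20, limma adjusted p = 8.1e-06). Its DMSO level rests on only 14 recovered reads in all DMSO libraries, against 125 in all IPI-9119 libraries. The size of the ABCG2 difference is therefore uncertain. FLVCR2 averaged 156 ± 29.6 with IPI-9119 and 49.4 ± 8.56 with DMSO (1.63, limma adjusted p = 3.3e-06). Of 24 genes of mitochondrial iron and iron-sulfur cluster assembly, 14 were higher, 2 lower (4 after the length and GC correction) and 8 did not pass (median 0.22), with CISD3 (0.80) and BOLA3 (0.74) rising. The mitochondrial iron importer SLC25A37 (mitoferrin 1) fell to 995 ± 32.0 with IPI-9119, against 1795 ± 96.7 with DMSO (-0.85, limma adjusted p = 2.9e-08). Of 10 cytosolic iron-sulfur assembly genes 5 were higher and 2 lower (median 0.16), CIAO2A (1.32) and GLRX3 (0.82) rising and NDOR1 falling (-1.02). CIAO2A, which serves the maturation of ACO1 and the stability of IREB2, averaged 2059.8 ± 186 with IPI-9119 and 822 ± 59.9 with DMSO.

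The list around AIFM2 was mixed. Of 12 coenzyme Q synthesis genes, whose product AIFM2 reduces, 5 were higher, 3 lower and 4 not past the test (median log2 fold change 0.13), and 3 were higher after the length and GC correction, by which 30.7% of all genes were. COQ2 (0.79) and PDSS1 (0.77) rose and COQ8A fell (-0.53, and -0.24 after that correction). Of 20 genes listed as ferroptosis suppressors other than AIFM2, 10 were higher, 6 lower and 4 did not pass (median 0.25). The desaturase SCD led at 149291 ± 8810.2 normalised counts with IPI-9119 and 17771 ± 757 with DMSO (3.07, limma adjusted p = 2.2e-14), followed by the sterol reductase DHCR7 (1.66) and the quinone reductase NQO1 (1.43), while PPARD fell (-1.42). SCD and DHCR7 are also enzymes of lipid and sterol synthesis. GPX4, named after its values were seen, averaged 5172 ± 119 with IPI-9119 and 3500.0 ± 105 with DMSO (0.56, limma adjusted p = 1.2e-07). Of 20 ferroptosis promoters, 8 were higher, 8 lower and 4 did not pass (median -0.06). By the same fit 31.3% of all genes tested were higher and 31.4% lower. ACSL4, which loads polyunsaturated fatty acids into lipids, averaged 452 ± 43.1 with IPI-9119 and 51.4 ± 2.88 with DMSO (3.11, limma adjusted p = 1.0e-10), whereas CHAC1 (-1.34), which degrades glutathione, and the glutamine carrier SLC1A5 (-1.24) fell.

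**Figure D5:**
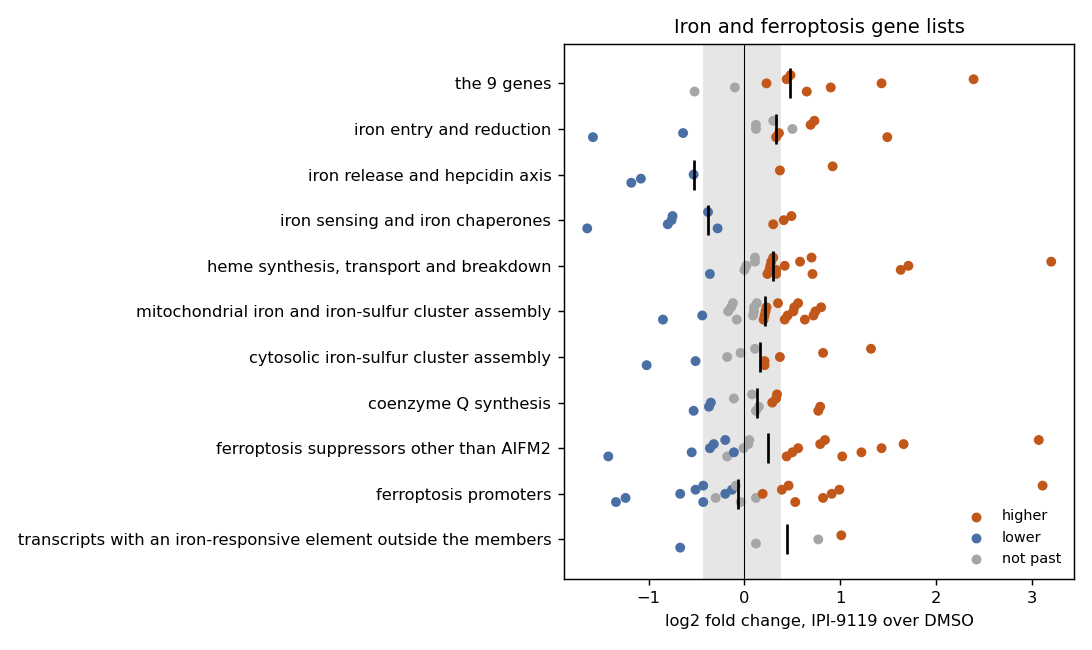
Log2 fold change of IPI-9119 over DMSO of every tested gene in the 9 members and in 10 further gene lists; orange is higher and blue lower past an adjusted p of 0.05, grey is not past, the vertical tick is the list's median and the grey band holds the middle 50% of all genes tested. Heme and mitochondrial iron genes lie mostly to the right of 0. The listed iron sensing and iron chaperone genes, without ACO1 and IREB2, lie mostly to the left.

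For each member, the genes most alike across the 6 libraries were found by Pearson r of log2(value + 1) among 10247 genes with a mean of at least 100. The libraries form 2 groups that differ in most genes, so r follows the group difference and is given as a description. TFRC was most like TXNRD1 (r = 0.9999), a thioredoxin reductase, and ADD3 (0.9997), and 566 genes had an r over 0.99 with it. FTH1 was most like UGT8 (0.9999) and LPIN1 (0.9997), FTL like C1orf52 and TLCD3A (both 0.9995), SLC11A2 like CYP39A1 (0.9998) and SLC30A1 (0.9992), and ACO1 like COX10 (0.9995) and MPZL1 (0.9990). Members with a small or noisy difference had few close matches: 8 genes passed an r of 0.99 for IREB2, led by LYNX1 (0.9959) and DMXL2 (0.9941). Likewise 8 passed it for SLC40A1, led by HTRA2 (0.9967) and MTLN (0.9953). NCOA4 had 1 such match, ZNF285 (0.9903), followed by FBXO38 (0.9808), and AIFM2 had none, its closest being UBE2J2 (0.9667) and RAB35-AS1 (0.9657).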

How the data were processed

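The deposited table gives a signal per gene and library: counts per gene, scaled by the authors with 1 size factor per library, as the values show. Per the submitters' processing notes the build is GRCh38, and STAR 2.5.2b, Trimmomatic 0.36, DESeq2, Subread 1.5.2 and featureCounts are listed with no roles. Annotation release and strand setting are not given in the sources used here. Low values were whole multiples of 1 read (100.0% within 0.01), which gave the read counts back. These totals ran from 19090749 to 23448035, and genes with more reads are measured more precisely.

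The test was limma 3.58.1 (R 4.3.3; trend and robust moderation), which compared 3 IPI-9119 with 3 DMSO libraries on log2(value + 1), two-sided, over 14437 genes with a mean of at least 10 (19 removed), called at a Benjamini-Hochberg adjusted p under 0.05. This scale understates the change of low genes. edgeR 4.0.16 and DESeq2 1.42.0 on the recovered reads were alternatives, beside a replicate block, other pseudocounts, filters and scalings, no trend with no robust moderation, a length and GC spline correction (4 degrees of freedom, values for 99.6% of genes) and leaving out each library. Symbols and positions come from GENCODE 29. Members and gene lists were chosen with earlier results of these data known. Genes named are the members, the 3 called genes of each list with the largest change and, where these went one way, the largest the other way (with none called, the smallest p), and the 2 genes most like each member. Some results under this rule for named genes were left out of the text.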

Additional observations from a re-analysis of the deposited data

How the results depend on the processing

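TFRC, SLC11A2, FTH1, FTL, SLC40A1 and ACO1 kept their direction and their call under all 18 alternatives, with log2 fold changes of 2.33 to 2.43 for TFRC, 0.63 to 0.71 for SLC11A2, 1.28 to 1.47 for FTH1, 0.34 to 0.49 for FTL, 0.67 to 1.06 for SLC40A1 and 0.41 to 0.49 for ACO1. AIFM2 did not pass under any of the 17 that tested it (-0.72 to -0.18); with a mean of at least 50 it was not tested. IREB2 lost its call with no trend and no robust moderation (0.23, limma adjusted p = 0.0752) and without IPI-9119 replicate 2 or 3, with 0.19 to 0.32 over the fits leaving out a library. NCOA4 passed as lower under quantile scaling (-0.15), the length and GC correction (-0.33), the replicate block (-0.10, limma adjusted p = 0.0295) and the replicate block with that correction (-0.33); the cause was not tested. Members called numbered 6 to 8. With the replicate block and the length and GC correction together, 5 of 24 mitochondrial iron genes and 2 of 19 heme genes were lower. In that fit 2 of 4 stromal, leukocyte and endothelial markers were higher. Of all 14386 genes in the same fit, 5133 were lower and 4639 higher. The ferritin log2 ratio difference was 0.91 to 1.03 when leaving out a library.

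Whether the replicate numbers pair the libraries is not settled. Deviations of same-numbered libraries correlated at 0.141, 0.063 and 0.004. The value for replicate 1 was the highest of any pair, whereas IPI-9119 replicate 3 correlated best with DMSO replicate 2 (0.099). With the block 9596 genes were called, against 9061 without it; edgeR called 9081 and DESeq2 8460. Depth limits AIFM2 and SLC40A1 most.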
